A study of Homo sapiens with 3 samples.

Results

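The kinesin family was followed in NCI-H1650 cells, in control cells and after exposure to colossolactone H. Members were the genes whose probe sets carried 1 platform symbol beginning with KIF and then a digit or C. That gave 91 probe sets of 45 genes, out of 54675 probe sets and 19775 genes on the array. Of the 45, 4 were antisense RNAs (KIF1C-AS1, KIF9-AS1, KIF23-AS1 and KIF25-AS1, 6 probe sets) and 41 were motor genes (85 probe sets). By role, 13 motor genes act in mitosis, 15 carry cargo or build cilia, and 13 have regulatory, ciliary or little studied roles.

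NCI-H1650 is an established human lung adenocarcinoma line, and colossolactone H is a triterpenoid of the fungus Ganoderma colossum. The groups were control cells, cells exposed to 40 μM of the compound (colo H in the labels) for 12 h, and cells exposed to 40 μM for 24 h, with 1 Affymetrix array each. All were kept in RPMI-1640 with 10% fetal calf serum. Neither a vehicle nor a collection time is stated for the control, and the 12 h and 24 h comparisons share the 1 control array. Compound, vehicle and time in culture therefore cannot be told apart. With 1 array per group there is no replicate spread, no test and no p-value, and the number of arrays limits the precision of every difference.

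Kinesins are motors that use ATP to walk along microtubules or to take their ends apart. Mitotic kinesins push spindle poles apart, move chromosomes and build the midzone where the cell divides, and their transcripts are made mostly in G2 and M phase. Transport kinesins carry vesicles, organelles and ciliary cargo in cells of any cycle phase. A tumour line in culture normally holds both kinds.

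Values are MAS5 signals, a linear brightness per probe set, and a gene took its probe set of highest mean log2 signal. Signals below a floor of 61.4, the overall 50th percentile, were raised to it. Genes above this floor on 1 array or more are called measured, which left 12341 of 19775. Differences are log2 of the first array named over the second. Of 41 motor genes 31 were measured: 12 mitotic, 13 transport and 6 others, and 30 of them lay above the floor on all 3 arrays. The 10 below the floor on every array were KIF2B among mitotic motors, KIF1A and KIF17 among transport motors, and KIF6, KIF12, KIF19, KIF21B, KIF25, KIF26B and KIF27. KIF4B and KIF28P had no probe set of their own.

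Between 27227 and 27388 probe sets exceeded the floor on each array. RNA quality differed on 1 of 2 measures: 3' probes of ACTB exceeded its 5' probes 4.95-fold in the control, 5.38-fold at 12 h and 6.55-fold at 24 h, against 1.21 to 1.25-fold for GAPDH. Of the epithelial markers 8 of 9 were measured, with a summed signal between 70380 and 73250. In the control they ran from 235.6 (SFTPB) to 23650 (KRT18). Their median difference at 24 h was -0.10, with KRT19 lowest at -0.60 and CLDN4 highest at 0.79. NKX2-1, the lung lineage factor in that list, lay below the floor on every array. Of the 5 neuronal markers 3 were measured (SYT1, MAP2 and SNAP25), and of the 5 ciliated cell markers 2 (DNAI1 and DNAH5), with FOXJ1 below the floor. Leukocyte markers summed to at most 218.7 over 6 genes, of which ITGAM alone was measured, above the floor in the control only (73.7). Fibroblast markers summed to 1700 in the control and 1171 at 24 h, all but 2 of the 6 (COL1A1 and COL3A1) being below the floor. Endothelial markers summed to 185.9, 136.1 and 103.3 over 4 genes, of which PECAM1 was measured, at -0.48 and -0.62. At 24 h MAP2 was at 0.91, SYT1 at 0.01, DNAI1 at -0.56 and DNAH5 at -0.49, while SNAP25 was above the floor in the control alone (115.4). The part of these signals in the kinesin values was not tested.

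At 24 h every one of the 12 measured mitotic kinesins was lower than in the control, with a median log2 difference of -0.60. The 13 transport kinesins had a median of -0.17 and went both ways. The role lists were set with earlier results of these data known. KIF2A, which also works at spindle poles, was counted among the others and was at -0.05. With KIF2A and KIF24 added to the mitotic list the median stayed at -0.60. This had to be so, because KIF24 (-0.73) lay below that median and KIF2A above it. Below the control lay 12 of 12 mitotic and 8 of 13 transport motors, against 49.9% of all measured genes, whose median was 0.00. KIF11, the bipolar motor that separates the spindle poles, was lowest by 2.10-fold. It was followed by KIF18A, which limits the length of kinetochore microtubules, by 1.91-fold. In RNA of whole cultures, fewer cells in mitosis and less kinesin RNA per cell cannot be told apart. Nor can the compound and time in culture.

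At 12 h the roles were not separated in this way. The mitotic median was -0.21 and the transport median was -0.23, against 0.00 for all measured genes. All 12 mitotic motors and 9 of 13 transport motors lay below the control, against 48.4% of all measured genes. Between 12 h and 24 h all 12 mitotic motors were lower again, with a median of -0.32, whereas 7 of 13 transport motors were lower, with a median of -0.02, against 51.7% of all measured genes. With KIF2A and KIF24 added to the mitotic list, its median between the treated arrays was -0.27. The mitotic minus the transport median was 0.03 at 12 h, -0.43 at 24 h and -0.30 between the treated arrays. With the median over the probe sets of each gene, the transport median was -0.12 at 12 h and -0.02 at 24 h, and the difference of medians -0.12 and -0.58.

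**Figure D1:**
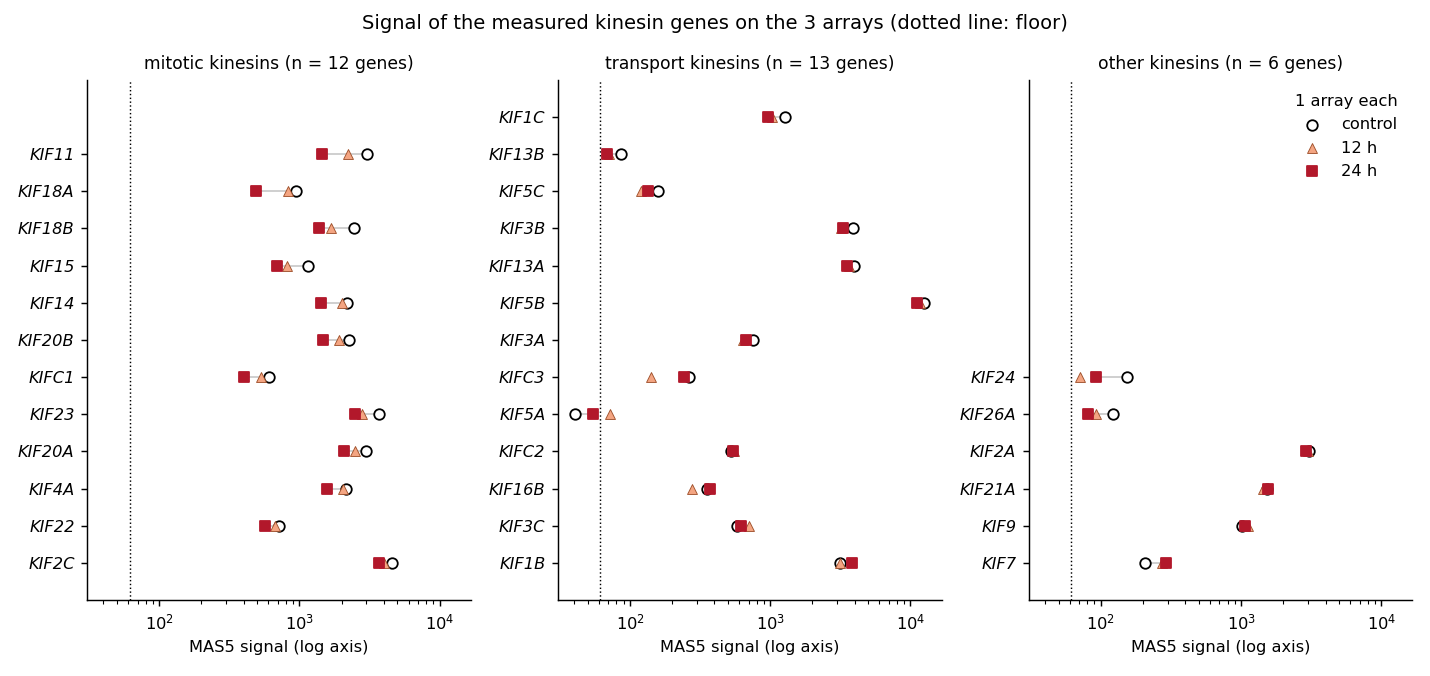
MAS5 signal (horizontal log axis) of the 31 measured kinesin genes by role on the control, 12 h and 24 h arrays, with the floor of 61.4 as a dotted line and 1 array per symbol. In the mitotic panel each 24 h square lies left of its control circle, from KIF11 (3044 to 1449) to KIF2C (4560 to 3670), while transport kinesins lie on both sides.

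Counted by size at 24 h, 7 of 12 mitotic motors were lower by 1.5-fold or more, against 4.87% of all measured genes. None of 13 transport motors were, and 2 of 6 others were, the dim KIF24 and KIF26A. The 2-fold threshold was passed by KIF11 alone, 1 of 12 mitotic motors, against 0.624% of all measured genes. At 12 h no mitotic motor was lower by 1.5-fold, a size reached by 3.06% of all measured genes. The central 90% of all measured genes at 24 h ran from -0.58 to 0.54, so 7 mitotic motors lay below that span and 5 within it. For 24 h against 12 h, KIF18A and KIF11 were lower by 1.5-fold or more, 2 of 12, against 1.9% of all measured genes.

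Counts of motors higher by these sizes were close to the shares of all measured genes. At 12 h 0 of 31 were higher by 1.5-fold, against 3.37% of all measured genes, or by 2-fold, against 0.438%. At 24 h 0 of 31 were higher by 2-fold, against 0.567%. Between the treated arrays KIFC3 alone was 1.5-fold higher, 1 of 31 against 1.45%, and none was 2-fold higher or lower, against 0.138% and 0.178%. Counted by any amount, the share of motors that were higher lay below that of all measured genes. It was 6 of 31 at 12 h, against 50.2%, and 7 of 31 at 24 h, against 48.8%. Between the treated arrays it was 9 of 31, against 46.4%.

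**Figure D2:**
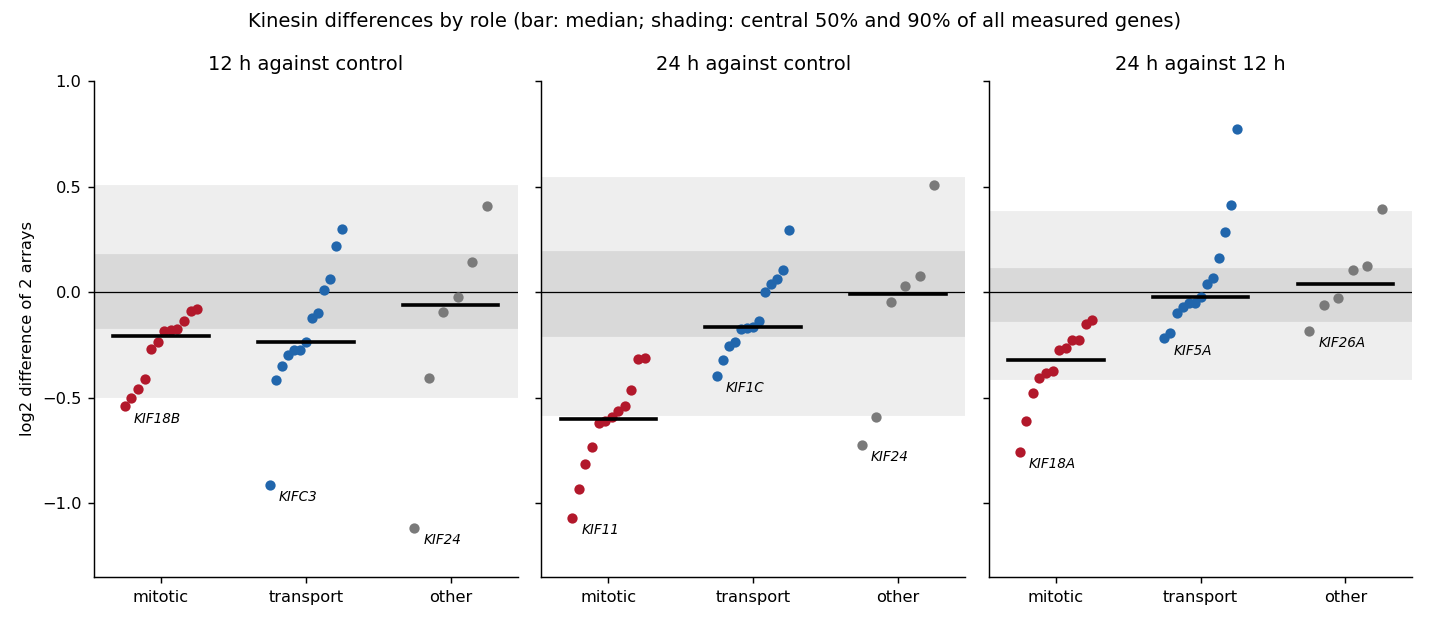
Log2 differences (vertical axis) of the measured kinesins by role in the 3 comparisons, 1 point per gene, with medians as black bars and the central 50% and 90% of all measured genes shaded. The mitotic and transport medians are -0.21 and -0.23 at 12 h but -0.60 and -0.17 at 24 h.

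Since the mitotic members lay lower together, their promoters were set beside the values. Cell cycle genes of G2 and M phase commonly carry a CHR element (cell cycle genes homology region, TTTGAA or the variant TTTAAA) downstream of CCAAT boxes, which bind NF-Y. RefSeq promoter windows (build GRCh38.p14) of 300 bases, from 250 before the gene start to 50 from the start on, were searched on both strands. For E2F sites the letters were TTTGGCGC, TTTCGCGC and GGCGGGAA. TTTAAA reads the same on both strands, and in these windows the matches did not overlap. The windows shown are those of the largest 24 h differences (KIF11 and KIF18A), of KIF15 for its E2F match, of KIF2C as the smallest mitotic difference, and of the transport motor KIF5B for contrast. Capitals mark the matches, read 5′ to 3′ along the gene.
KIF11 promoter, chr10:92592880-92593179, plus strand: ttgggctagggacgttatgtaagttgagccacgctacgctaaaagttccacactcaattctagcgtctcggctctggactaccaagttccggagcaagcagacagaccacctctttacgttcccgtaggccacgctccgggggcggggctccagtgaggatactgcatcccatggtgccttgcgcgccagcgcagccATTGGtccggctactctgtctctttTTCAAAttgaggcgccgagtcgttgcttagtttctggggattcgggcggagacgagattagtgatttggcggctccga
KIF18A promoter, chr11:28108107-28108406, minus strand: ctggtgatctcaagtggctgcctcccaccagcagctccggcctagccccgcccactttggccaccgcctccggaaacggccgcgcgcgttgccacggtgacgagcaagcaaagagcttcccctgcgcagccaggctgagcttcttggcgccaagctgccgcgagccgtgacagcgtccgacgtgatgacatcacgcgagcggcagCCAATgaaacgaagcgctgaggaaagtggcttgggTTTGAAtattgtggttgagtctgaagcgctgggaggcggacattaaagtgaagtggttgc
KIF15 promoter, chr3:44761544-44761843, plus strand: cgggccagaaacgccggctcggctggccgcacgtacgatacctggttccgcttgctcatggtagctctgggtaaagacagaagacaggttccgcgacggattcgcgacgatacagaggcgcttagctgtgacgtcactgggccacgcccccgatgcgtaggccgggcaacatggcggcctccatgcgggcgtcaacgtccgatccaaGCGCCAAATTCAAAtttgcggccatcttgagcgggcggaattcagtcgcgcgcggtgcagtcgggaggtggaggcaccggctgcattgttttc
KIF2C promoter, chr1:44739587-44739886, plus strand: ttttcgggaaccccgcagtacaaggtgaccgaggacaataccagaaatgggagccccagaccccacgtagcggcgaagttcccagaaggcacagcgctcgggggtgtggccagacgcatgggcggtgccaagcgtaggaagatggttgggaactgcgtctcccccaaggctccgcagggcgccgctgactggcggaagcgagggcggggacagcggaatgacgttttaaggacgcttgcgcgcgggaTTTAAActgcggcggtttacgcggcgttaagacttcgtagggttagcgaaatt
KIF5B promoter, chr10:32056376-32056675, minus strand: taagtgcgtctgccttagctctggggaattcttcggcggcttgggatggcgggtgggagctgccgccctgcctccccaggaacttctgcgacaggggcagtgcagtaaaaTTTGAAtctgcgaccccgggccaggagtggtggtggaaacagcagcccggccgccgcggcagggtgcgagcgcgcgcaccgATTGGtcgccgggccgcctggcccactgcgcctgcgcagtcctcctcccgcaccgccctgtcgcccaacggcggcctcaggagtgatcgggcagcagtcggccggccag

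KIF11 (Entrez gene 3832) holds a CCAAT box on the opposite strand from -53 to -49 and TTTGAA on the opposite strand from -28 to -23, counted from the gene start at 0. KIF18A holds both on the same strand, CCAAT from -45 to -41 and TTTGAA from -10 to -5. In KIF15 the E2F letters, from -43 to -36, run directly into the CHR, from -35 to -30. KIF2C has the TTTAAA variant across the start and no NF-Y box. KIF5B holds a CHR as well, at -140, upstream of its NF-Y box.

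The CHR form TTTGAA was present for 9 of 12 measured mitotic kinesins (75%), 1 of 9 transport kinesins (11.1%), 0 of 6 others and 18.2% of the 27305 genes with a window. The 3 mitotic kinesins without it were KIF2C, KIF20A and KIF22, of which KIF2C and KIF20A held the variant. The variant was present for 4 of 12 mitotic, 1 of 9 transport (KIF16B) and 14.5% of all genes, and either form for 11 of 12, 2 of 9 and 27.9%. The NF-Y box was present for 10 of 12 mitotic (83.3%), 4 of 9 transport (44.4%), and 39.7% of all genes, and the E2F letters for 1 of 12, 0 of 9 and 5.11%. The NF-Y box and the TTTGAA form occurred together in 8 of 12 mitotic promoters, against 7.26% of all genes. From -100 to the end of the window, a span set after the positions were seen, the TTTGAA form was found in 9 mitotic and 0 transport promoters, against 8.46% of all genes. The 10 mitotic matches began between -55 and 30. In the 8 genes with both, 4 (KIF23) to 117 (KIF20B) bases lay between the nearest upstream NF-Y box and the CHR, with 18 to 30 in KIF14, KIF4A, KIF11, KIF18B and KIF18A. The smallest 24 h differences among mitotic motors were those of KIF2C (-0.31) and KIF22 (-0.32), both without the TTTGAA form. KIF4A, which holds that form and an NF-Y box, came next at -0.46, and KIF20A, without the form, was at -0.54. A relation between the element and the size of the difference was not tested. A match describes letters and is neither a bound site nor a cause. KIF13B, KIF5A, KIFC2 and KIFC3 had no window in the table, and genes with several starts (5191 of all, 1 mitotic and 2 transport) were counted if any window matched.

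**Figure D3:**
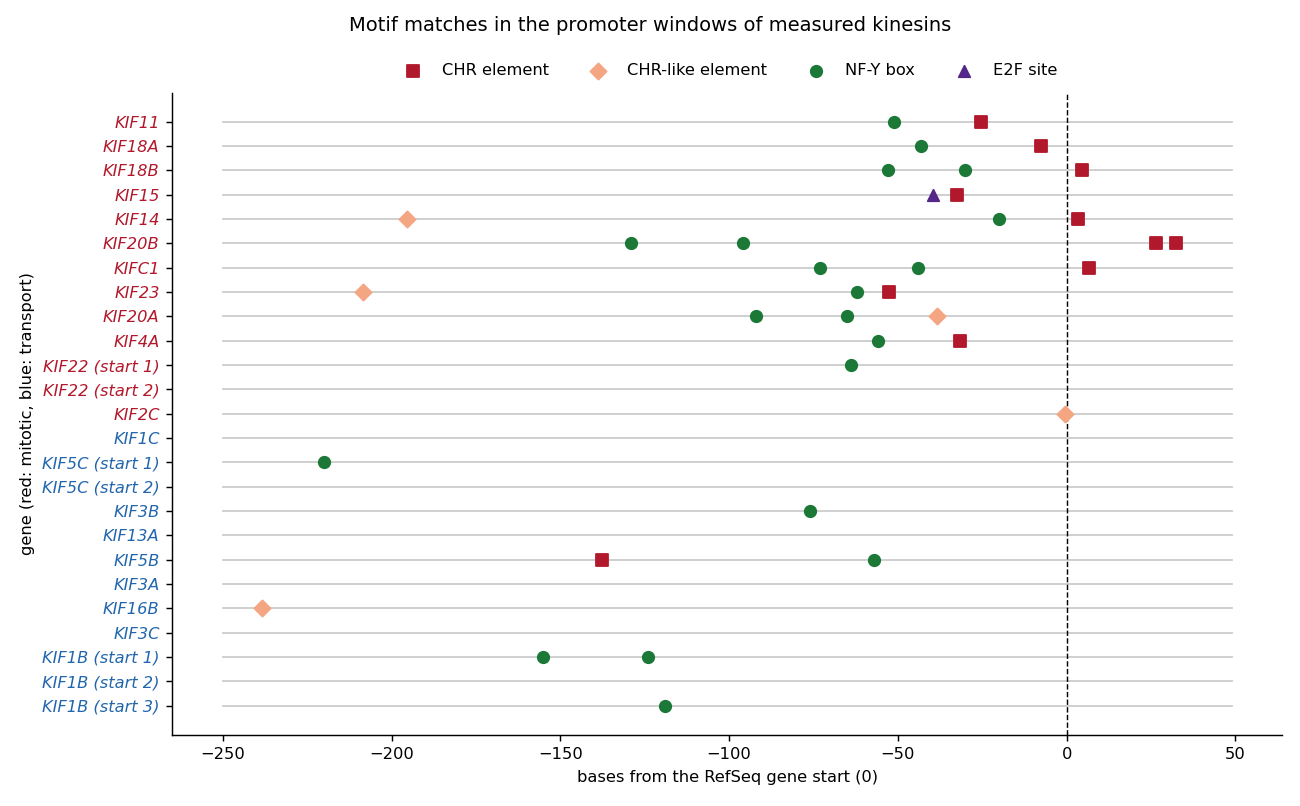
Motif matches along the promoter windows of measured mitotic (red) and transport (blue) kinesins, with bases from the gene start at 0 on the horizontal axis and 1 line per window. CHR elements of 9 mitotic genes sit between -55 and 35, mostly downstream of NF-Y boxes (CCAAT), while the 1 transport match, in KIF5B, begins at -140.

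KIF11, KIF15, KIF18A, KIF18B and KIFC1, which shape the spindle, were at -1.07 to -0.59 at 24 h. Control, 12 h and 24 h signals of KIF11 were 3044, 2211 and 1449, differences of -0.46 and -1.07. Its steps were similar in size, with 24 h at -0.61 against 12 h. KIF15, which backs up KIF11 in holding the spindle poles apart, went from 1155 to 815.4 and 695.5, so most of its difference was present at 12 h (-0.50, then -0.73). KIF18A differed mostly after 12 h, from 941.0 to 834.7 and 493.5. Its differences were -0.17 and then -0.93, and the one of -0.76 between the treated arrays was the lowest of the 31 measured motors. KIF18B, its relative that trims astral microtubules, stood at 2440, 1676 and 1386, differences of -0.54 and -0.82. It was the lowest mitotic motor at 12 h. KIFC1, the minus-end motor that focuses spindle poles and clusters extra centrosomes, went from 605.1 to 533.1 and 401.9, at -0.18 and then -0.59. Each of these 5 motors had 1 probe set above the floor.

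The chromokinesins KIF22 and KIF4A and the depolymerase KIF2C were at -0.46 to -0.31 at 24 h. KIF22, which moves chromosome arms along the spindle, stood at 711.1, 668.9 and 570.5 (-0.09 and -0.32). Its second probe set was at 0.29 at 12 h and -0.29 at 24 h, so its direction at 12 h turned with the median over its probe sets, to 0.10. KIF4A, which compacts chromosomes and stops midzone microtubules from growing, went from 2163 to 2048 and 1568, at -0.08 and -0.46. KIF4B is a close, intronless copy of KIF4A without a probe set of its own, so the KIF4A signal may hold some of its RNA. KIF2C, the depolymerase MCAK that corrects faulty kinetochore attachments, stood at 4560, 4026 and 3670. Its difference at 24 h was -0.31, and its second probe set gave 0.09 at 12 h and -0.03 at 24 h.

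KIF23, KIF20A, KIF20B and KIF14, motors of the midzone and of cytokinesis, were at -0.62 to -0.54 at 24 h. KIF23, the motor of the centralspindlin complex, stood at 3693, 2771 and 2499, with -0.41 at 12 h and -0.56 at 24 h. Its second probe set gave -0.38 and -0.53, within 0.03 of the first. KIF20A, which brings the chromosomal passenger complex to the midzone, went from 3006 to 2491 and 2070 (-0.27 and -0.54). KIF20B, a midzone motor needed late in cytokinesis, went from 2254 to 1914 and 1477 (-0.24 and -0.61). KIF14, which places citron kinase at the midbody, stood at 2198, 1997 and 1431, at -0.14 and -0.62. A second KIF14 probe set gave -0.37 and -0.76, so the gene was lower on both.

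Probe sets of the same gene were then compared. Of the 16 mitotic probe sets above the floor, 16 were lower than the control at 24 h and 14 at 12 h, while 15 and 19 of 29 transport probe sets were, and 5 and 5 of 10 others. Among all single-gene probe sets above the floor 49% were lower at 24 h, and 49% at 12 h. Of 4 mitotic genes with several such probe sets, all 4 had them on the same side of the control at 24 h, and 1 of 11 transport genes did (KIF3B). At 12 h 2 of 4 mitotic and 5 of 11 transport genes did. The probe sets of a gene were a median of 0.08 apart in the mitotic and 0.42 apart in the transport group at 24 h, and 0.25 and 0.40 apart at 12 h. The 24 h differences of the transport motors, from -0.40 to 0.29, were smaller than their median spread between probe sets at 24 h. KIF18A, KIF20B, KIF22 and KIFC1 were measured only by probe sets whose suffix marks possible matches to several transcripts, and the 8 other mitotic motors were lower at 24 h on transcript-specific probe sets alone.

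**Figure D4:**
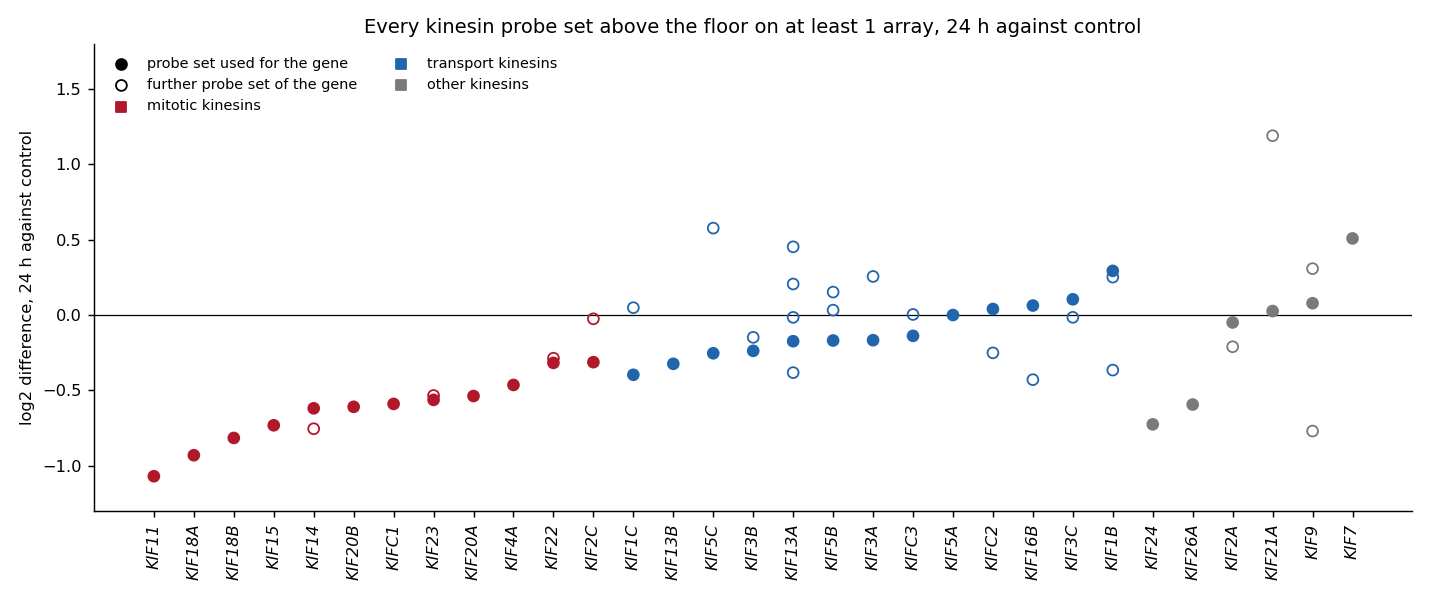
Log2 difference at 24 h against control (vertical axis) of every kinesin probe set above the floor on at least 1 array, by gene, with filled symbols for the probe set that gave the gene its value. All 16 mitotic probe sets lie below 0, from -1.07 to -0.03, while probe sets of 1 transport gene often lie on both sides of 0.

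The conventional kinesin-1 heavy chains carry vesicles and mitochondria. KIF5B, their form in most tissues, stood at 12523, 11679 and 11137 on its brightest probe set, at -0.10 and -0.17. Its other probe sets were at 0.15 and 0.03 at 24 h, and its direction turned to 0.03 with the median over probe sets. KIF5C, a mainly neuronal form, was dim at 159.2, 119.4 and 133.5 (-0.42 and -0.25). A second KIF5C probe set gave 0.58 at 24 h, and the median over both was 0.16. KIF5A, the other neuronal form, exceeded the floor at 12 h only, at 71.5 signal units. It was thus at least 1.16-fold higher there than in the control, from a signal close to the floor.

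The kinesin-2 motors drive transport into cilia. KIF3B went from 3864 to 3191 and 3276, and KIF3A, its partner in the heterotrimer, from 749.3 to 636.7 and 667.3. KIF3B was at -0.28 and -0.24 and KIF3A at -0.23 and -0.17. Both were thus below the control at 12 h and at 24 h, and no lower at 24 h than at 12 h. A second KIF3A probe set gave 0.26 at 24 h, and the median over both was 0.04. KIF3C, an alternative partner of KIF3A, stood at 574.3, 705.7 and 617.4, at 0.30 and 0.10. With transcript-specific probe sets alone KIF3C turned to -0.23 and -0.02.

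The kinesin-3 motors carry synaptic vesicle precursors, endosomes and lysosomes. KIF1B, which carries mitochondria and vesicles, stood at 3122, 3146 and 3826, and was the transport motor with the highest 24 h difference, 0.29. Its further probe sets were at 0.25 and -0.37 at 24 h, and its difference of 0.01 at 12 h turned with cyclic loess and with the median over probe sets. KIF1C went from 1274 to 1035 and 967.5. At 24 h it had the lowest difference among transport motors, -0.40, but a second probe set gave 0.05. KIF13A, an endosomal motor, had 5 probe sets above the floor, the brightest at 3982, 3654 and 3530. They ranged from -0.38 to 0.45 at 24 h, and the 12 h direction turned to 0.10 with transcript-specific probe sets alone. KIF13B was near the floor at 86.0, 71.2 and 68.7, and KIF16B, an early endosome motor, stood at 354.3, 278.3 and 370.1, lower at 12 h (-0.35) and at 0.06 at 24 h. The 24 h direction of KIF16B turned to -0.18 with the median over its probe sets.

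The C-terminal motors KIFC2 and KIFC3 move towards microtubule minus ends. KIFC2 stood at 526.6, 549.9 and 541.4, at 0.06 and 0.04, and the 24 h value was -0.11 as the median over probe sets. KIFC3 stood at 264.8, 140.6 and 240.6. Its 12 h difference of -0.91 was the lowest among transport motors, but its second probe set stood at 196.0, 196.9 and 196.5, a difference of 0.01. The 12 h difference of KIFC3 thus rests on 1 of its 2 probe sets.

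Among the 6 other measured motors the differences went both ways, around medians of -0.06 (12 h) and -0.01 (24 h). KIF24, which restrains the growth of cilia at the mother centriole, stood at 153.0, 70.5 and 92.5. It was 2.17-fold lower at 12 h, the 1 motor of 31 past 2-fold there, against 0.429% of all measured genes, and 1.65-fold lower at 24 h. It rests on 1 dim probe set, whose 12 h signal was close to the floor and which was no longer measured with the floor at the 65th percentile. KIF26A, a motor-like protein without ATPase activity, was also dim, at 122.3, 92.1 and 81.0 (-0.41 and -0.59). KIF7, a ciliary regulator of Hedgehog signalling, went the other way, from 206.0 to 272.9 and 293.1. Its 24 h difference of 0.51 was the highest of the 31 motors on these probe sets, below 1.5-fold, a size at which 0 of 31 motors and 4.04% of all measured genes were higher. With the median over probe sets KIF21A was higher, at 0.61.

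KIF2A, a depolymerase that works at spindle poles and in neurons, stood at 3026, 2978 and 2924. Its difference at 24 h was -0.05, and -0.21 on its second probe set. The median over probe sets was -0.13, beside -0.17 for its relative KIF2C. Its direction at 12 h (-0.02) turned with median centring and with either other choice of probe sets. KIF21A, which limits microtubule growth at the cell cortex, was at 1521, 1423 and 1549, a difference of 0.03 at 24 h. A second KIF21A probe set stood at 225.4, 278.5 and 514.5, differences of 0.31 and 1.19, so the gene value rests on the choice of probe set. The median over both was 0.10 at 12 h and 0.61 at 24 h. KIF9, a motor linked to motile cilia, stood at 1008, 1112 and 1064 (0.14 and 0.08). Its 3 probe sets above the floor carry the suffix for possible cross-hybridisation, and another of them was at -0.84 and -0.77.

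The partners of the mitotic motors were lower at 24 h as well, by a smaller median. Of 27 measured spindle and midzone genes 24 were lower at 24 h and 21 at 12 h, against 49.9% and 48.4% of all measured genes, with medians of -0.40 and -0.16. At 24 h 5 of 27 were lower by 1.5-fold, against 4.87%. The largest mean differences belonged to PLK1, the mitotic kinase, at -0.26 and -0.77, ASPM, a spindle pole protein, at -0.30 and -0.67, and ANLN, an organiser of the contractile ring, at -0.34 and -0.57. INCENP, the scaffold of the chromosomal passenger complex, followed at -0.23, and lay below the floor at 24 h. TPX2, which recruits KIF11 to the spindle, was at -0.04 and -0.32, PRC1, which brings KIF4A to the midzone, at -0.13 and -0.32, and RACGAP1, which binds KIF23, at -0.08 and -0.43. CENPE, the kinesin-7 of kinetochores that lacks a KIF symbol, stood at 2198, 1907 and 1398, at -0.20 and -0.65, within the range of the KIF-named mitotic motors. STARD9, the other listed motor without a KIF symbol, lay outside that range at 0.36 and -0.01, with signals near the floor. MKI67, a marker of cycling cells, was at -0.42 and -0.88, while CCNB1, the mitotic cyclin, was at -0.01 and -0.13. TTTGAA was present for 16 of 23 spindle and midzone genes with a window (69.6%), against 18.2% of all genes.

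The partners of the transport motors were spread around 0. Of 17 measured light chains and cargo adaptors 10 were lower and 7 higher at 24 h, close to the 49.9% and 48.8% of all measured genes, around medians of -0.01 (12 h) and -0.06 (24 h). The light chains KLC1 and KLC2, which couple kinesin-1 to cargo, were at 0.24 and 0.15 at 24 h, and KIFAP3, the non-motor subunit of kinesin-2, at 0.15. The adaptors MAPK8IP2 and MAPK8IP3 were at -0.55 and -0.59, and BORCS5, which helps lysosomes engage kinesin-1, at 0.66 and KLC3 at 0.37. TTTGAA was present in 0 of 14 adaptor and light chain promoters, against 18.2% of all genes.

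Dynein and dynactin, the motor complex of the opposite direction, were mostly higher than the control, by small amounts. Of 21 measured subunits and regulators 17 were higher at 12 h and 19 at 24 h, against 50.2% and 48.8% of all measured genes, with medians of 0.11 and 0.12. Both medians lay within the central 50% of all measured genes, -0.17 to 0.17 at 12 h and -0.21 to 0.19 at 24 h. Further probe sets of these genes were not compared. PAFAH1B1, the dynein regulator LIS1, stood at 3738, 4224 and 5277, a difference of 0.50 at 24 h. DCTN4 was at 0.37 and DYNLRB1 at 0.34, while NDE1, which acts with LIS1 at kinetochores, was at -0.48. At 24 h 0 of 21 were 1.5-fold higher or lower, sizes reached by 4.04% and 4.87% of all measured genes. The median of the tubulins, the track itself, was -0.01 at 24 h, 5 of the 10 measured being lower, against 49.9% of all measured genes. TUBB2A alone, 1 of 10, was higher by 1.5-fold, against 4.04%. TUBB2A was at 0.65, TUBA1A at 0.40, TUBB6 at -0.32 and TUBG1, the nucleating gamma-tubulin, at -0.19. Tubulin genes are close in sequence, so their probe sets may share signal. TTTGAA was present for 0 of 18 dynein and dynactin genes with a window and 2 of 10 tubulin genes, against 18.2% of all genes. The NF-Y box was present for 9 of 18 and 7 of 10, against 39.7% of all genes. It was present for 16 of 23 spindle and midzone genes and 5 of 14 adaptors and light chains.

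**Figure D5:**
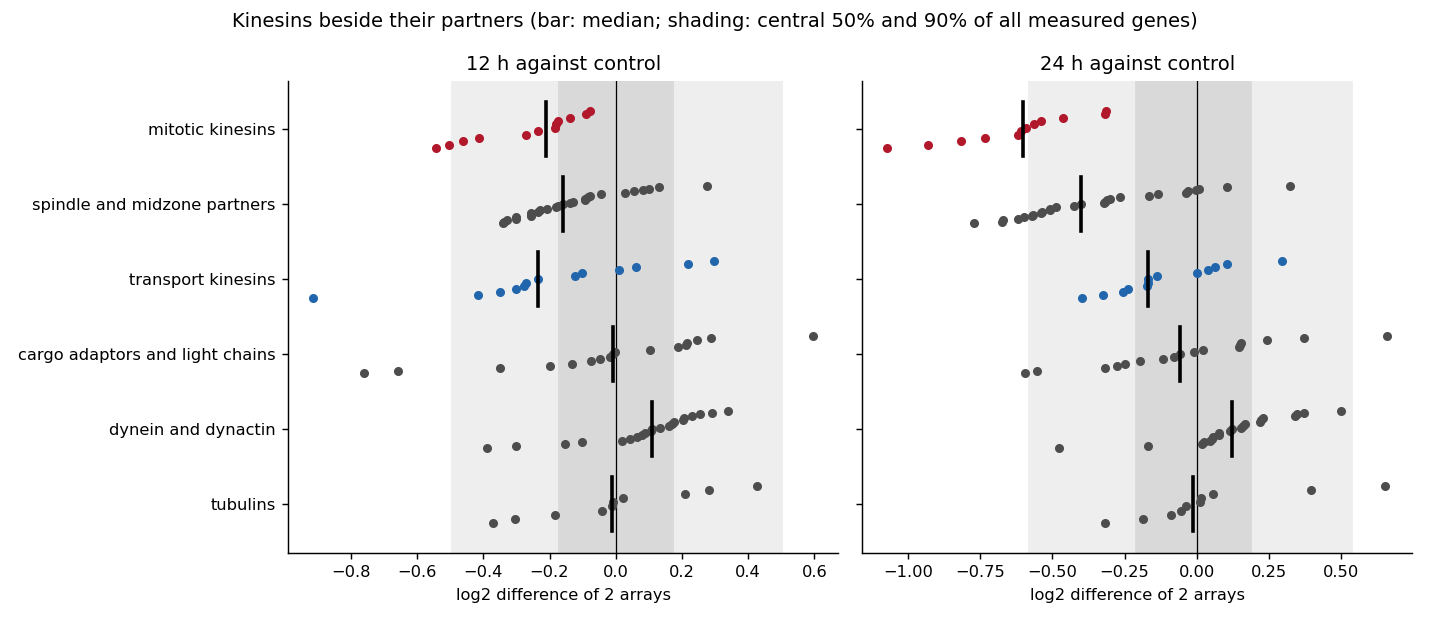
Log2 differences (horizontal axis) of the measured mitotic and transport kinesins and of their partner groups at 12 h and 24 h against control, 1 point per gene, with medians as black bars and the central 50% and 90% of all measured genes shaded. At 24 h the medians are -0.60 for mitotic kinesins, -0.40 for spindle partners, -0.17 for transport kinesins and 0.12 for dynein and dynactin.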

How the data were processed

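The authors deposited 1 intensity per probe set and array on a linear scale. The submitters' processing notes name MAS5, and its version and settings are not given in the sources used here. Each array averaged 500.1 once the outer 2% of values at either end were dropped, so the values were used unscaled. Symbols came from the platform annotation, with 1 gene for 41097 probe sets, several for 1801 and none for 11777, and Entrez identifiers linked 41043 of them to RefSeq.

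For each probe set the signal was floored and log2 differences of pairs of arrays were taken in Python 3.11.15 with pandas 2.3.3. A gene took its single-gene probe set of highest mean log2 signal. The calculation was tested on simulated data with planted differences. Limma 3.58.1 supplied cyclic loess. Alternatives changed the scaling, the floor, the pseudocount (1), the choice of probe set, the measured rule, the 1.5-fold threshold and the role lists. Every measured kinesin is named. From each partner list up to 4 members of largest mean difference are named, with a few fixed ones. The members, roles, lists and alternatives were chosen with earlier results of these data known. Gene names and promoter sequences are from RefSeq, GRCh38.p14. The labels call none of the arrays replicates, so differences describe these 3 arrays.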

Additional observations from a re-analysis of the deposited data

Results flagged for a closer look

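A KIF21A probe set that did not supply the gene value lay above the control at 24 h, with a log2 difference of 1.19. Control, 12 h and 24 h signals of that probe set were 225.4, 278.5 and 514.5. The brighter probe set of KIF21A was at 1521, 1423 and 1549.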

How the results depend on the processing

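No paired analysis was possible because each group held 1 array, and no array could be left out. Under the 9 alternatives in scaling, floor, probe set choice and measured rule, the mitotic median at 24 h stayed between -0.61 and -0.58, and the mitotic minus transport difference between -0.58 and -0.43. No mitotic kinesin changed direction at 24 h. At 12 h KIF22 did, as did 3 of 13 transport kinesins, and 6 of 13 did at 24 h.

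The list medians and their differences that moved by more than 0.1 did so with the choice of probe set. Among single genes the floor also mattered: KIF5A was at 0.81 at 12 h and 0.42 at 24 h with the floor at the 25th percentile, and KIFC3 at -0.46 at 12 h with the 65th. With transcript-specific probe sets alone the mitotic median at 12 h was -0.33, over 8 genes, and the difference of medians was -0.091. With the median over the probe sets of a gene, the transport median was -0.124 at 12 h and -0.0155 at 24 h, and the difference of medians was -0.121 and -0.585. The cause was not tested.

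Counts of genes past 2-fold changed with the floor. The main counts were 53 lower and 54 higher at 12 h, 77 and 70 at 24 h, and 22 and 17 for 24 h against 12 h. With the floor at the 25th percentile they were 788 and 695, 872 and 732, and 748 and 694. With the 65th percentile they were 18 and 26, 27 and 34, and 1 and 4. With no floor and a pseudocount of 1 they were 1754 and 1595, 1848 and 1613, and 1717 and 1678. At 1.5-fold they were 378 and 416, 601 and 498, and 234 and 179. Requiring all 3 arrays above the floor left 11 higher for 24 h against 12 h. KIF24, KIF26A, KIF13B and KIF5A had signals near the floor.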

Other observations

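Antisense RNAs with KIF names were left out of the motor counts. KIF9-AS1 was the 1 of 4 that exceeded the floor, with control, 12 h and 24 h signals of 79.9, 77.8 and 61.1, the last below the floor. No probe set of KIF1C-AS1, KIF23-AS1 or KIF25-AS1 exceeded 31.2 signal units.

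Among kinesin motors without a KIF symbol, STARD9, a centrosomal member of the kinesin-3 group, stood near the floor at 86.8, 111.1 and 86.1 signal units, differences of 0.36 at 12 h and -0.01 at 24 h.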
